A study of Caenorhabditis elegans with 24 samples.

Results

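The transcriptome described here is that of untreated wild-type (wt) *Caenorhabditis elegans* on day 3, in 5 RNA-Seq libraries out of 24 in the series. They were chosen by the sample titles, which give the strain, the treatment and replicates 1 to 5. The worms were strain NV48, a wt line isolated from a cross of XR1, which carries the *abl-1*(ok171) deletion, with GRU102, a strain expressing human Aβ in neurons. NV48 is a single line, and the methods name it once as the Aβ strain whereas the labels and the strain list call it wt. Neither the Aβ transgene nor its fluorescent marker has a row in the gene table. Untreated means solvent only: from the egg on, worms were kept at 20 °C on HT115 bacteria with the empty vector pL4440, mixed with 0.5% DMSO and a trace of Tween 80. Whole worms were pooled for each library. Levels are given as RPKM for 20191 protein-coding genes. RPKM is the reads of a gene scaled to its exon length and to the mapped reads of the library. Genes and libraries can be set side by side on this scale only as far as exon length and depth go. The libraries still differed in summed RPKM, and other scalings were tried.

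On a laboratory diet at this temperature *C. elegans* passes from egg to egg-laying adult within a few days, and the adult hermaphrodite makes yolk in the intestine and packs it into oocytes. Its gonad makes sperm first, in the last larval stage, and then switches to oocytes for the rest of its life. The germline holds a large share of the nuclei of an adult, its X chromosomes are mostly silent there, and the cuticle, a collagen coat made by the skin, is replaced at each molt. RNA of whole worms is a mixture of all of these tissues, and in such bulk samples fewer cells of a type and less RNA per cell cannot be told apart.

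The 5 libraries were close to each other. Their RPKM summed to between 716553 and 730333, and between 10418 and 10635 genes reached 1 RPKM. The spacing of the low values put the depth at about 27.26, 35.52, 28.02, 34.62 and 32.32 M (mega) mapped reads in replicates 1 to 5. Across the 6475 genes with a mean of at least 10 RPKM, the log2 levels of any pair of libraries had a Pearson correlation of 0.987 to 0.998, given as a description across genes, which are not independent replicates. Replicates 1 and 2 stood apart from replicates 3, 4 and 5. Between replicates 1 and 2, 12 of these genes differed by more than 2-fold, among replicates 3 to 5 it was 2 or 3 for each pair, and between the former and the latter it was 29 to 47. The labels name no batch, culture or extraction for any library. Values without replicates 1 and 2 are given for the counts of spread and for some list shares.

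The levels were steeply graded. Of all genes, 52.1% (10519) had a mean of at least 1 RPKM, 6475 had at least 10 RPKM, 1188 at least 100 RPKM and 131 at least 1000 RPKM. The last of these classes, 0.649% of the genes, held 36.4% of the summed RPKM. The sum was reached to 50% by 325 genes and to 90% by 3844 genes, and the median gene lay at 1.28 RPKM. The 10 most abundant transcripts together made 5.64% of the sum, the 30 most abundant 13.0% and the 100 most abundant 31.3%.

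The most abundant transcript was *eef-1A.1*, the elongation factor that brings aminoacyl-tRNA to the ribosome. It was at 6176, 6500, 6912, 6959 and 7356 RPKM in replicates 1 to 5 (6781 ± 454 RPKM, SD, n = 5). Its SD exceeded its distance to the second transcript, *rpl-41.2*, a small protein of the large ribosomal subunit at 6433 ± 383 RPKM, so that the order of both is not fixed: *rpl-41.2* was the higher of both in replicates 1 and 2 (6493 and 7010 RPKM). All others lay well below. The yolk protein genes *vit-2* (3705 ± 176 RPKM) and *vit-6* (3683 ± 167 RPKM) followed, and they differed by less than the spread between libraries, as did the ribosomal protein genes *rps-25* (3650 ± 87.5 RPKM) and *rps-23* (3622 ± 59.8 RPKM) behind them. *vit-2* was at 3682, 3867, 3550, 3521 and 3903 RPKM in replicates 1 to 5. The other members of the first 10 were *rpl-39* (3446 ± 243 RPKM), *rps-24* (3315 ± 87.1 RPKM), the yolk protein gene *vit-5* (3218 ± 95.3 RPKM), and *far-2* (3046 ± 168 RPKM), which encodes a secreted protein that binds fatty acids and retinol.

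Proteins of the cytosolic ribosome took 5 of the first 10 places, 24 of the first 30 and 71 of the first 100. Within the first 30 they ran from *rpl-41.2* down to *rpl-3* (2448 ± 110 RPKM), and the sequence-named Y37E3.8 among them (2812 ± 30.2 RPKM) is *rpl-27A* in RefSeq. The 30th transcript was the cuticle collagen *col-122* at 2674, 2522, 2326, 2173 and 2386 RPKM in replicates 1 to 5. The genes from the first to the 30th place span a factor of 2.81, and between 29 and 30 of the 30 stayed among the first 30 when any single library was left out.

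**Figure D1:**
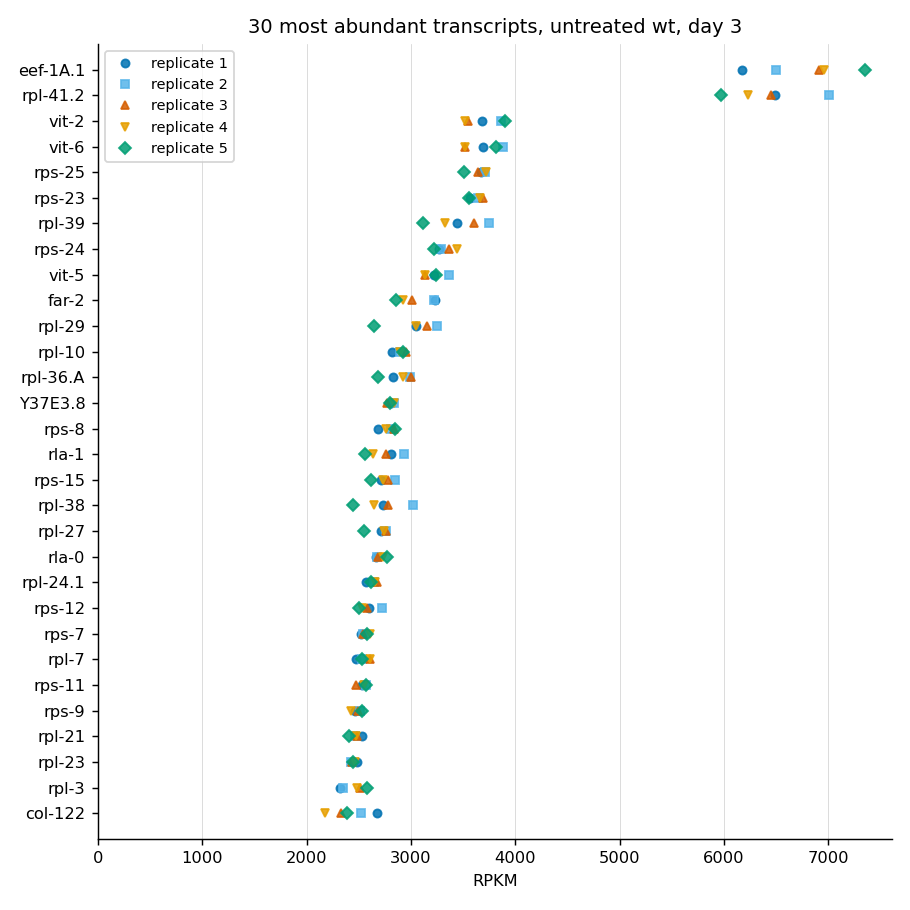
RPKM (x axis, from 0) of the 30 most abundant transcripts (rows, ordered by mean), with 1 point per library. *eef-1A.1* and *rpl-41.2* lie apart at means of 6781 and 6433 RPKM, and the other transcripts run from 3705 RPKM (*vit-2*) to 2416 RPKM (*col-122*).

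The transcripts that make and maintain proteins formed the largest block of the lists described. The 86 genes for cytosolic ribosomal proteins made 23.9% ± 0.248 (SD, n = 5) of the summed RPKM of a library, and their share differed by a factor of 1.03 between the highest and the lowest library. The 42 initiation and elongation factors made 2.49% ± 0.121, led after *eef-1A.1* by *eef-1G* (1660 ± 50.8 RPKM), *eef-2* (1529 ± 132 RPKM) and *iff-1* (1361 ± 33.8 RPKM), which encodes a form of the factor eIF5A known from the germline. By contrast, the 72 proteins of the mitochondrial ribosome, all above 1 RPKM, made 0.507% ± 0.0117, with a median gene at 49.2 RPKM against 1996 RPKM for the cytosolic ribosome.

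Chaperones made 1.40% ± 0.0868, and the small heat shock protein *sip-1* (1994 ± 139 RPKM), known from oocytes and embryos, stood above *hsp-1* (1639 ± 123.3 RPKM) and *hsp-90* (1562 ± 134 RPKM), the constitutive members of the HSP70 and HSP90 families. The 33 proteasome subunits were at similar levels to each other and made 1.01% ± 0.0364, from *pas-5* (343 ± 6.87 RPKM) and *pbs-1* (318 ± 11.1 RPKM) down. Of the respiratory chain, the 48 nuclear genes made 1.60% ± 0.0439, with the ATP synthase subunits *atp-2* (1285 ± 21.2 RPKM) and *atp-1* (921 ± 25.97 RPKM) highest. The 12 genes of the mitochondrial genome made 0.158% ± 0.00635, and *ctc-1*, a cytochrome oxidase subunit, was the highest of these at 257 ± 6.64 RPKM. Libraries were made from poly(A)-selected RNA, and how completely mitochondrial transcripts are captured was not tested.

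Germline transcripts were present throughout, and the lists of oocyte and eggshell genes and of maternal RNA regulators had the highest shares among them. The 5 germline lists (oocyte and eggshell, RNA regulators, germ granules and small RNAs, meiosis, replication and mitosis) hold 137 different genes, which made 4.22%, 4.19%, 4.33%, 4.33% and 4.45% of the sum in replicates 1 to 5, or 4.31% ± 0.104. Each of the 137 genes had a mean of at least 1 RPKM. Since germ cells make ribosomal and other housekeeping transcripts too, this is a share of the listed genes and not of the tissue.

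In the oocyte and eggshell list (28 genes, 1.53% ± 0.0330) the chitin-binding proteoglycans of the eggshell *cpg-2* (1441 ± 60.7 RPKM) and *cpg-1* (1282 ± 37.6 RPKM) led, next to the permeability barrier genes *perm-2* (1277 ± 56.2 RPKM) and *perm-4* (1100 ± 24.6 RPKM). The yolk receptor *rme-2*, through which oocytes take up vitellogenin, was at 436 ± 15.2 RPKM, and *oma-2*, a zinc finger protein of oocyte maturation, at 472 ± 5.59 RPKM. The RNA regulators of germline and early embryo made 1.57% ± 0.05002 and were led by the Y-box protein gene *cey-2* at 2259 ± 118 RPKM, the RNA helicase *cgh-1* at 1269 ± 47.9 RPKM and *car-1*, which encodes an RNA-binding protein, at 1236 ± 47.6 RPKM. The maternal zinc finger gene *pos-1* reached 878 ± 18.3 RPKM and *gld-1*, a translational repressor of meiotic germ cells, 514 ± 8.40 RPKM.

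The remaining germline lists were smaller in sum. Replication and mitosis made 0.760% ± 0.0201, with cyclin B3 (*cyb-3*, 704 ± 8.71 RPKM), ribonucleotide reductase (*rnr-2*, 515 ± 11.2 RPKM) and PCNA (*pcn-1*, 505 ± 17.7 RPKM) highest. Germ granule and small RNA genes made 0.295% ± 0.0153, led by the Argonautes *wago-1* (353 ± 20.1 RPKM) and *hrde-1* (213 ± 4.56 RPKM) and the granule protein *pgl-1* (183 ± 5.99 RPKM). Meiosis genes made 0.156% ± 0.00455, and their highest members were the chromosome axis proteins *him-3* (83.3 ± 2.56 RPKM) and *htp-1* (76.5 ± 4.11 RPKM) and the synaptonemal complex protein *syp-4* (71.1 ± 1.67 RPKM).

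Sperm transcripts made small shares, and those of the major sperm proteins were uneven between libraries. The 31 major sperm protein genes, which encode the motile cytoskeleton of sperm and are near-identical copies whose reads may be shared, summed to 39.5, 113, 10.6, 44.2 and 4.54 RPKM in replicates 1 to 5, a range of 24.4-fold in their share. Replicate 2 was the highest library and replicate 5 the lowest, and no member reached a mean of 10 RPKM, the highest being *msp-59* at 3.25 ± 3.36 RPKM. The mean share was 0.00581% of the sum, and 0.00340% without replicate 2. Of the list, *msp-32*, *msp-58* and *msp-74* were at 0 in all libraries. The other 76 sperm genes made 0.0204% ± 0.00218, with a 1.31-fold range between libraries. This list was shortened after its values were seen, and with the *nspa*, *nspb*, *nspc* and *nspe* genes it made 0.0985% ± 0.0127. Of the 76 genes 18 reached 1 RPKM, led by *spe-39* (50.05 ± 1.07 RPKM), a vesicle trafficking gene that is also used outside sperm, and *spe-48* (30.5 ± 1.35 RPKM). Their members *msd-3*, *nspd-8* and *spe-29* were at 0 in all 5 libraries.

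Genes first transcribed in embryos were detected at low level. Of 19 such genes 15 reached 1 RPKM, and *tbx-9* (26.3 ± 1.86 RPKM), *vet-6* (10.9 ± 1.16 RPKM) and *sdz-28* (9.08 ± 2.18 RPKM) were highest. The list summed to 83.4, 81.9, 81.8, 77.9 and 59.5 RPKM in replicates 1 to 5, and replicate 5 lay below the other libraries. The endoderm factor *end-1* was at 2.03 ± 0.633 RPKM.

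Among somatic genes, yolk and cuticle stood out. The 6 vitellogenins made 2.27% ± 0.0749 of the sum, from *vit-2* down to *vit-1* (1247 ± 46.8 RPKM), and *vit-3*, *vit-4* and *vit-5* are so alike that the split of reads between them is uncertain. The 176 cuticle collagen genes made 3.23% ± 0.364. They summed to 26910, 25808, 21415, 20763 and 22417 RPKM in replicates 1 to 5, so that replicates 1 and 2 lay above the other libraries. Few members carried the list, since 67 of the 176 had a mean of at least 1 RPKM and the median member was at 0.512 RPKM. The highest were *col-122* (2416 ± 191 RPKM), *col-119* (2193 ± 187 RPKM), *col-181* (1869 ± 150 RPKM) and *col-20* (1748 ± 319 RPKM).

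Among the stage-specific cuticle genes 1 was abundant. The adult collagen *col-19* was at 878, 875, 632, 580 and 605 RPKM in replicates 1 to 5 (714 ± 149 RPKM), whereas the other adult collagens on the list were low, *col-62* at 2.16 ± 0.504 RPKM and *col-7* at 0.482 ± 0.195 RPKM. Of the genes listed as late larval collagens *col-38* was at 2.12 ± 0.393 RPKM, level with *col-62*. *col-63*, *col-49*, *bli-2* and *bli-1* were at 0.231 to 0.0446 RPKM. In which stage's cuticle each product lies was not tested. The 29 molting and cuticle assembly genes made 0.0152% of the sum. Their highest members were *bli-4* (34.6 ± 1.16 RPKM), a processing protease, and the molting cycle receptor *nhr-23* (24.0 ± 0.491 RPKM). Of the dauer list, 2 of 10 genes reached 1 RPKM, with *lea-1*, a desiccation protein, at 44.6 ± 1.09 RPKM and the dauer collagens *col-2* and *col-40* at 0.222 ± 0.114 and 0.120 ± 0.0578 RPKM. Of the male soma list, 1 of 17 genes reached 1 RPKM (*nlp-52* at 2.48 ± 0.399 RPKM).

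Body wall muscle and intestine were clearly represented. The 25 muscle genes made 0.615% ± 0.0666, led by troponin C (*pat-10*, 816 ± 66.6 RPKM), the myosin light chain *mlc-2* (621 ± 78.0 RPKM) and troponin I (*unc-27*, 473 ± 38.5 RPKM), and the major myosin heavy chain *unc-54* was at 176 ± 22.4 RPKM. The 19 intestine markers made 0.312% ± 0.0244, led by the aspartic protease *asp-1* (760 ± 54.9 RPKM), the cysteine protease *cpr-1* (410.5 ± 97.7 RPKM), the fatty acid binding protein *lbp-6* (271 ± 24.2 RPKM) and the microvillar actin *act-5* (262 ± 38.6 RPKM). Lysosomal proteases overlap this list and made 0.890% ± 0.0734, with cathepsin L (*cpl-1*) at 1020 ± 76.1 RPKM. Secreted antimicrobial proteins and lectins made 1.16% ± 0.0639, and 105 of 339 reached 1 RPKM, with *clec-87* (1716 ± 24.0 RPKM), a lectin-type chondroitin proteoglycan, and the lysozyme *ilys-5* (1060 ± 45.2 RPKM) highest. Fatty acid genes made 1.32% ± 0.0509, and after *far-2* their highest members were *far-1* (901 ± 21.1 RPKM) and *lbp-9* (882 ± 23.0 RPKM).

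The other tissue marker lists made smaller sums. Pharyngeal muscle and gland markers made 0.0115% ± 0.00163 of the sum, with the troponin I *tni-4* at 29.3 ± 3.46 RPKM and the pharyngeal myosin *myo-2* at 7.27 ± 1.32 RPKM, and the gland gene *gly-15* at 0 in all libraries. Neuron markers made 0.0844% ± 0.00135, and 22 of 35 reached 1 RPKM. The highest were the synaptic vesicle protein *snb-1* (148 ± 4.21 RPKM) and the octopamine and tyramine enzymes *tbh-1* (142 ± 3.59 RPKM) and *tdc-1* (104.4 ± 2.18 RPKM), which are also made in the sheath of the gonad. The neuropeptide processing genes *sbt-1* and *egl-21* were at 26.3 ± 2.61 and 22.5 ± 2.96 RPKM. Sensory cilium genes were lower, 0.00110% ± 0.000117 in all, and 2 of 25 reached 1 RPKM, *osm-1* (1.87 ± 0.0625 RPKM) and *dyf-3* (1.32 ± 0.236 RPKM).

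Touch receptor markers ran from *mec-12* (6.46 ± 0.953 RPKM), an alpha tubulin, to the channel subunit *mec-4* (0.101 ± 0.0448 RPKM). Hypodermis markers made 0.0284% ± 0.000983, led by the epidermal factor *lin-26* (56.04 ± 1.82 RPKM). The list of gonad sheath and spermatheca markers made 0.0738% ± 0.000948, led by the receptor *ptc-1* (167 ± 7.71 RPKM). It also holds the innexins *inx-14* (101 ± 3.91 RPKM) and *inx-8* (80.9 ± 4.39 RPKM), which join the germline and its sheath. How much of the RNA of this list came from the germline was not tested, so its share is not that of a tissue. Coelomocyte and excretory cell markers (0.0110% ± 0.000372) and glia markers (0.00428% ± 0.000149) were lower still, and *lit-1*, a kinase used in many tissues, was the only glia marker above 10 RPKM at 22.7 ± 0.528 RPKM. All 51 lists together cover 4455 genes and 48.7% ± 0.564 of the sum.

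**Figure D2:**
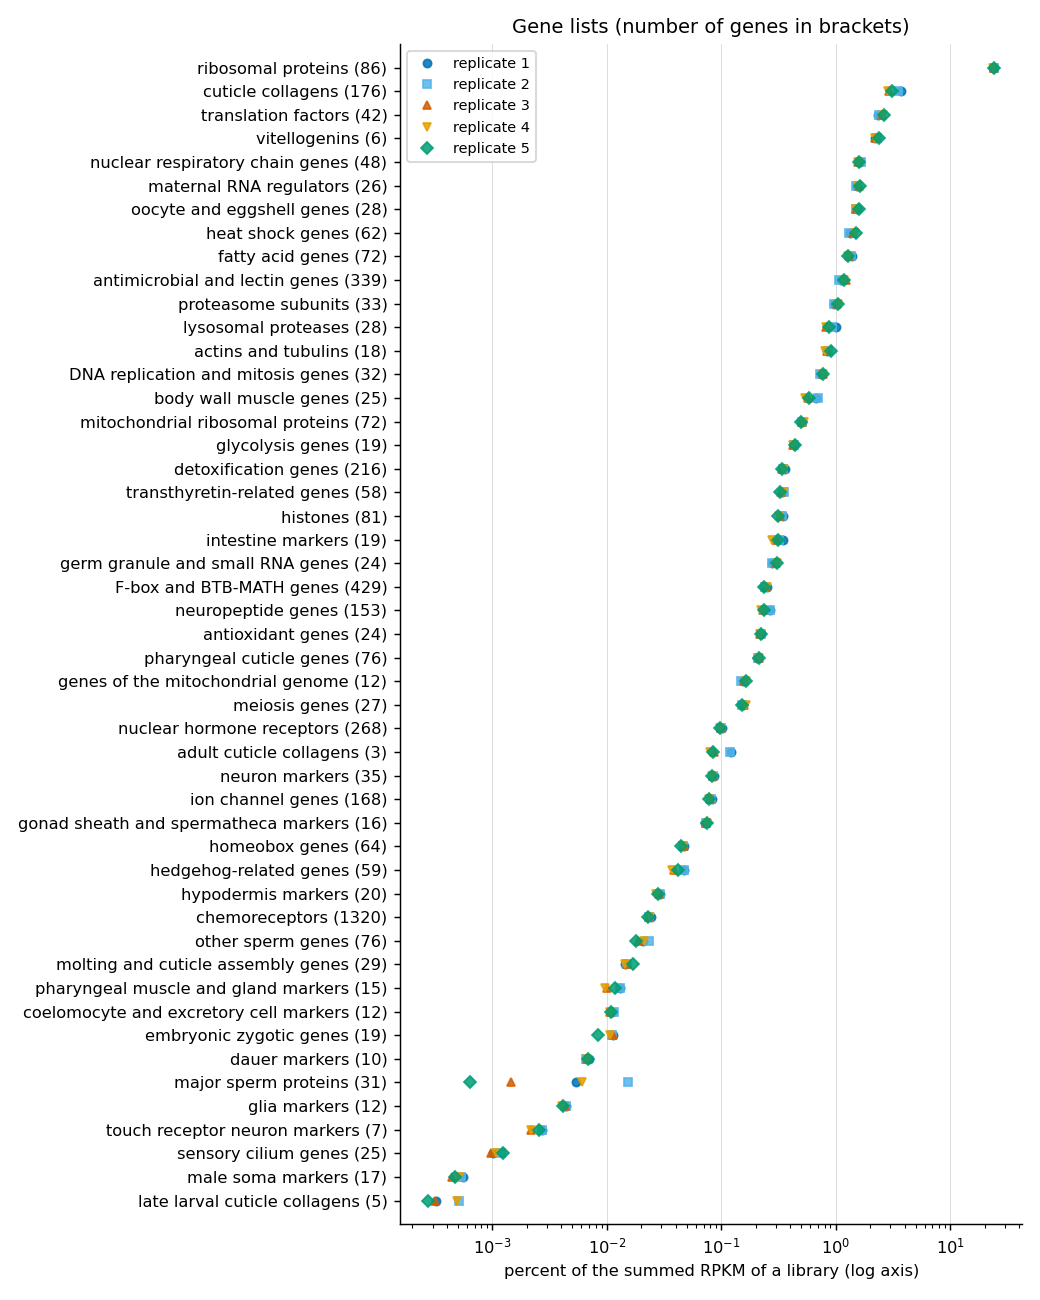
Share of the summed RPKM of a library (x axis, percent, log axis) for 49 gene lists, with the number of genes in brackets and 1 point per library. Ribosomal proteins lie near 24%, sensory cilium, male soma and late larval collagen genes near or below 0.001%, and the points of the major sperm proteins are spread more widely than those of the other lists.

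*abl-1*, the kinase gene whose deletion came with 1 parent of the cross, was read in every library, at 7.00, 7.52, 7.30, 7.51 and 7.08 RPKM in replicates 1 to 5 (7.28 ± 0.242 RPKM).

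By chromosome, the sum did not follow the number of genes. Chromosome I held 14.4% of the genes with a position and 23.1% ± 0.0786 of their summed RPKM, and chromosome III 13.2% of the genes and 21.8% ± 0.0901 of the sum. Chromosome V held 24.99% of the genes and 15.1% ± 0.142 of the sum. The X chromosome held 13.6% of the genes and 7.32% ± 0.179 of the sum, in spite of the yolk protein genes *vit-1*, *vit-2*, *vit-3*, *vit-4* and *vit-5* on it. The share of X was 7.50%, 7.50%, 7.23%, 7.09% and 7.26% in replicates 1 to 5, so that replicates 1 and 2 were the highest. Of the genes with at least 1 RPKM the median level was 7.26 RPKM on X against 14.1 to 32.003 RPKM on the autosomes, while the share of genes reaching 1 RPKM (53.7% on X) was lowest on V (37.4%). On X lay 2 ribosomal protein genes, against 8 to 27 on each autosome.

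A total of 2024 genes, 10.0%, were at 0 in all 5 libraries, and 14669 genes, 72.7%, were above 0 in each. In a single library 17.7% to 20.3% of the genes were at 0. The deepest libraries, replicates 2 and 4 (35.52 and 34.62 M estimated reads), had the fewest genes at 0, 3618 and 3571. The others did not follow depth throughout, with 3927 in replicate 5 (32.32 M), 4103 in replicate 3 (28.02 M) and 3897 in replicate 1 (27.26 M). A value of 0 allows up to 3 reads, which at the median exon length came to 0.0725 to 0.0944 RPKM (counting error only). The genes detected in all libraries fell to 13191, 11042 or 9991 where at least 0.1, 0.5 or 1 RPKM was required in each. Among the genes that were at 0 in some but not all libraries, the median of the highest value was 0.0804 RPKM, inside this range of limits.

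The genes at 0 were not drawn evenly from the genome. Of those with a position, 49.6% lay on chromosome V, which holds 24.99% of all genes, and their median exon length was 894 bases against 1244 for the others. Chromosome V is the home of many chemoreceptor genes, the large families of receptors by which single sensory neurons detect odours and tastes. The 17 chemoreceptor families with at least 20 genes hold 1265 genes, of which 661 (52.3%) were at 0 in all libraries and 6 reached 1 RPKM. They supplied 32.7% of all genes at 0. Of the 90 families with at least 20 genes, chemoreceptors were 16 of the 17 with the highest shares at 0, and *irld* was the other. *srz* (79.7% of 64), *srbc* (70.0% of 70), *srw* (61.5% of 109), *srh* (57.3% of 220), *srj* (56.4% of 39) and *str* (53.4% of 193) headed them.

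Few chemoreceptor genes reached 1 RPKM, 9 of 1320 on the whole list. The highest of the list were *odr-8* (60.8 ± 2.79 RPKM) and *odr-4* (33.5 ± 2.26 RPKM), which act in receptor trafficking and are no receptors. Within the families of at least 20 genes, *sri-40* was at 31.5 ± 3.03 RPKM, *srv-1* at 6.02 ± 0.377 RPKM, *str-176* at 4.96 ± 0.562 RPKM and *srh-237* at 3.53 ± 1.203 RPKM. The highest members of *srz*, *srbc* and *srw* lay at 0.0306, 0.0542 and 0.105 RPKM. The *nhr*, *clec* and *fbxa* families are set beside all genes, of which 10.0% were at 0 and 52.1% reached 1 RPKM. Of 267 *nhr* genes, nuclear hormone receptors, 27 (10.1%) were at 0 and 118 reached 1 RPKM, with *nhr-49* highest at 43.5 ± 1.26 RPKM. Of 240 *clec* genes 42 (17.5%) were at 0 and 60 reached 1 RPKM. Of 176 *fbxa* F-box genes 18 (10.2%) were at 0, and *fbxa-215* was at 183 ± 6.59 RPKM. The shares of *nhr* and *fbxa* at 0 were thus near that over all genes. In 38 families no member was at 0 in all libraries, among them the *flp* neuropeptides (29 of 31 at 1 RPKM or more), the *unc* genes, the *vha* subunits of the proton pump and the *npp* nucleoporins.

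**Figure D3:**
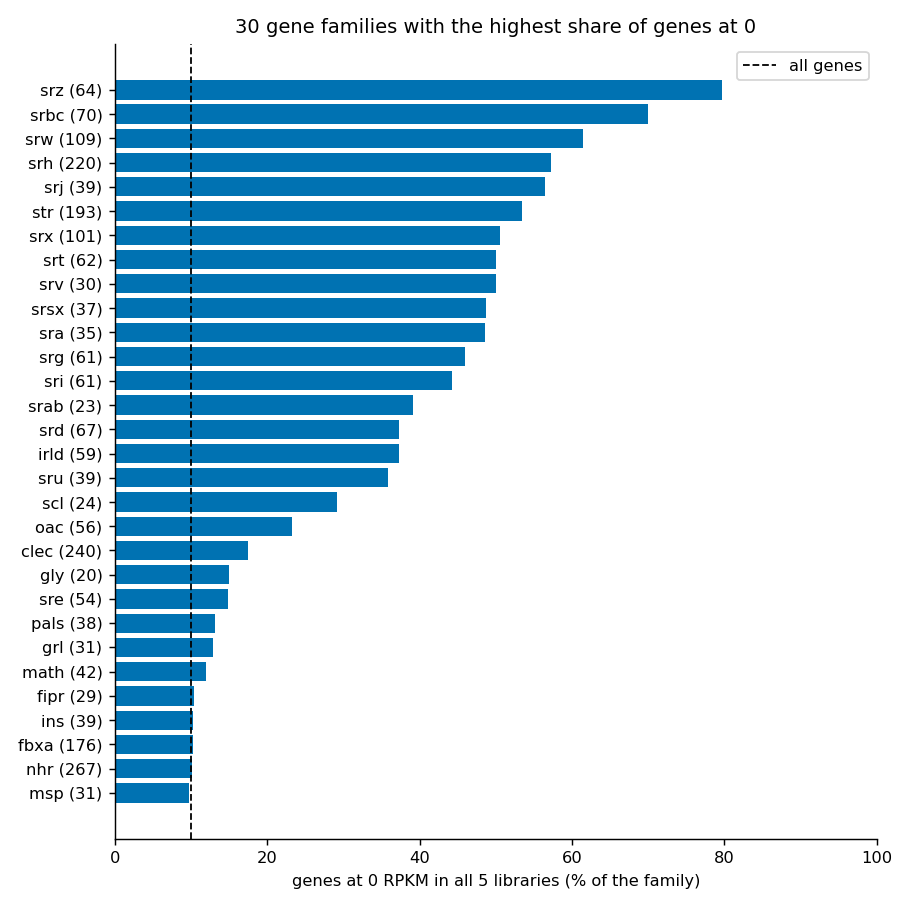
Percent of genes at 0 RPKM in all 5 libraries (x axis) in the 30 gene families with the highest share, among families of at least 20 genes (gene number in brackets). The dashed line is the share over all genes, 10.0%, and the bars of *srz* and *srbc* reach 79.7% and 70.0%.

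Near-identical copies limit what a value of 0 shows. *pud-1.1* was at 0 in all 5 libraries while *pud-1.2*, its near-identical copy, had a mean of 1694 RPKM, and the assignment of reads that fit both copies is not stated in the sources used here. The collagen *col-3* was at 0, 2.11, 2.57, 4.76 and 14.6 RPKM in replicates 1 to 5, the highest value of any gene that was at 0 in another library, and *col-117* was at 3.74, 5.92, 1.08, 0 and 7.24 RPKM.

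Most genes differed little between the 5 libraries. The spread of a gene was taken as the SD of log2(RPKM + 0.5), where 0.07 is a deviation of about 5% of the level. Over the 6475 genes with a mean of at least 10 RPKM the median spread was 0.0672, with 0.0268 at the 5th and 0.224 at the 95th percentile. In 5104 genes (78.8%) the highest library was below 1.2 times the lowest, and in 78 genes (1.205%) it was above 2 times. The median coefficient of variation fell with level. It was 36.3% for genes between 0.1 and 1 RPKM, 13.5% between 1 and 10 RPKM, 4.85% between 10 and 100 RPKM and 3.63% above 1000 RPKM. The median SD of log2(RPKM + 0.5) was 0.192, 0.164 and 0.0689 in the first 3 of these classes. It was lower, 0.0825, for genes above 0 and up to 0.1 RPKM. Counting error alone, from the estimated reads, would give a median of 0.0314 over the 6408 of the 6475 genes that have an exon length. The spread was at or below it in 535 (8.35%) and above 3 times it in 1791 (27.9%).

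**Figure D4:**
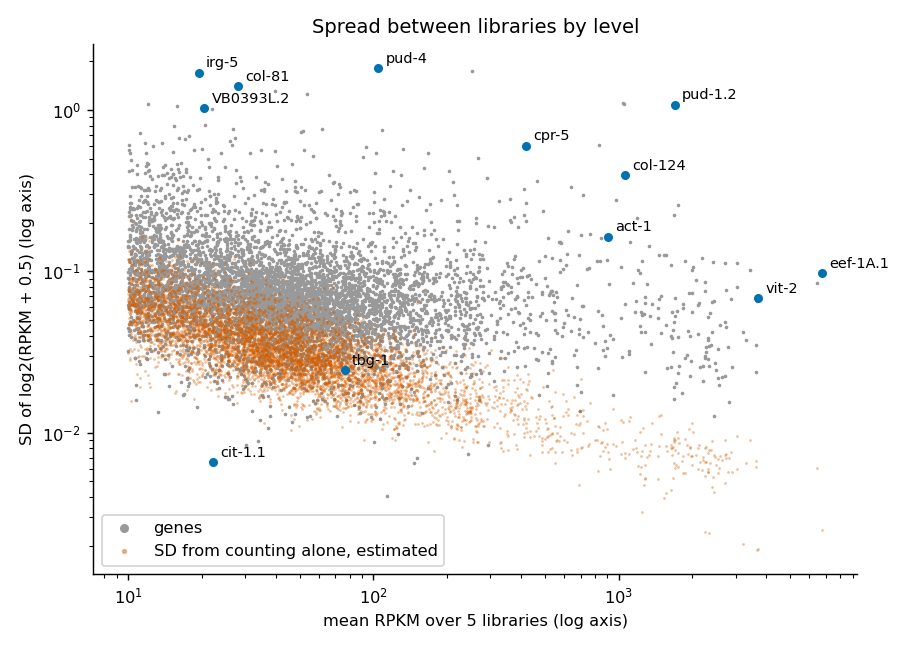
SD of log2(RPKM + 0.5) over the 5 libraries (y axis, log) against the mean RPKM (x axis, log) for the 6475 genes with a mean of at least 10 RPKM (grey), with the SD that counting alone would give (orange, estimated) and 12 genes marked in blue. Most genes lie above the orange points, and *pud-4*, *irg-5* and *col-81* lie at the top.

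The least spread gene, F09G2.2, was at 114, 114, 114, 114 and 113 RPKM (spread 0.00405), and *timm-17B.1*, a subunit of the mitochondrial import channel, at 146, 146, 146, 145 and 146 RPKM (0.00650). *cit-1.1*, a cyclin T, followed at 22.1 ± 0.103 RPKM, then *cchl-1*, a cytochrome c heme lyase, at 151 ± 0.730 RPKM, and K01G5.5, which is *dkc-1* in RefSeq, the pseudouridine synthase dyskerin, at 243 ± 1.25 RPKM. The other 10 were *dot-1.1*, *hrp-1*, *nkb-1*, *mboa-2*, *pid-3*, *pssy-2*, *trm-1*, *erl-1*, *smr-1* and T28B11.1. All 14 of these 15 genes with an exon length had a spread at or below that of counting alone, so their order is not resolved by these libraries. It also changes with the scaling, since 3 of the 15 remained among the 15 least spread when each library was rescaled to the same sum and 0 remained after scaling by the median of ratios.

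Genes often used as references in quantitative PCR covered the whole range. *tbg-1*, gamma tubulin, was at 75.0, 76.8, 77.8, 77.0 and 74.8 RPKM (spread 0.0245, percentile 3.41 of the 6475 genes), and *cdc-42*, a small GTPase, at 131 ± 2.42 RPKM (0.0266). *rpl-32* (0.0301) and *pmp-3* (0.0336), a peroxisomal transporter, were also in the lower range. *ama-1*, the large subunit of RNA polymerase II, had 0.0576, Y45F10D.4 (*iscu-1* in RefSeq) 0.0672, *tba-1* 0.0742 and *eef-1A.1* 0.0972. At the upper end *gpd-3*, a glyceraldehyde phosphate dehydrogenase, had 0.149 and *act-1* 0.164, percentile 91.2, at 929, 1064, 839, 788 and 905 RPKM in replicates 1 to 5. Actin and glyceraldehyde phosphate dehydrogenase genes have near-identical copies, and the split of reads between these is uncertain.

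A small set of genes varied strongly: the spread exceeded 0.2 in 414 genes (6.39%), 0.5 in 51 and 1 in 13. These 51 were 38 without replicate 2 and 10 with replicates 1 and 2 both left out, where 6 of the 30 most spread genes remained among the 30. The upper end was held by the *pud* genes, which were named for proteins raised in *daf-2* insulin receptor mutants. *pud-4* was at 50.2, 8.22, 142, 181 and 142 RPKM in replicates 1 to 5 (spread 1.82) and *pud-3* at 118, 23.0, 358, 425 and 334 RPKM (1.75). *pud-1.2* was at 1040, 434, 2269, 2550 and 2180 RPKM (1.08) and *pud-2.2* at 636, 256, 1440, 1523 and 1341 RPKM (1.11), and *pud-2.1*, its near-identical copy, gave 641, 263, 1467, 1547 and 1329 RPKM. All were lowest in replicate 2 and second lowest in replicate 1, by a factor of 5.88 to 22.1 between the extremes. *pud-1.2*, *pud-3*, *pud-4* and *pud-2.2* lie on chromosome V of WBcel235, between positions 2322038 and 2329954.

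Several other genes were placed the same way. *irg-5*, a gene named for its response to infection, was at 3.13, 3.02, 40.5, 26.99 and 23.5 RPKM in replicates 1 to 5 (spread 1.70), with no overlap between replicates 1 and 2 and the other libraries. *asm-3*, an acid sphingomyelinase, was at 4.71, 3.56, 15.6, 18.1 and 18.5 RPKM (1.08), and *gba-4*, a glucocerebrosidase, at 10.2, 7.13, 36.6, 31.1 and 25.1 RPKM (1.01). The lipase *lipl-5* was at 65.4, 48.6, 166, 142 and 119.3 RPKM (0.76), and *dod-24*, which is named for lying downstream of the factor DAF-16, at 10.2, 8.85, 26.8, 19.8 and 19.9 RPKM. In each of these replicates 1 and 2 were the lowest libraries. *lys-7*, a lysozyme, was low in replicate 2 alone (54.2, 19.0, 67.4, 56.3 and 61.9 RPKM). C17H12.8, *ule-2*, F09E10.1, Y45F10C.2 and C17F4.7 were also lower in replicates 1 and 2 than in the other libraries.

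Of the collagens among the 30 most spread genes, all had the opposite order. *col-81* was at 31.2, 81.7, 9.60, 9.29 and 8.62 RPKM in replicates 1 to 5 (spread 1.40), *col-139* at 48.3, 107, 15.3, 13.8 and 14.4 RPKM (1.31) and *col-129* at 66.5, 137, 24.4, 18.1 and 20.7 RPKM (1.25). *col-92* (1.06), *col-142* (0.76) and *col-159* (0.73) followed the same order. In each of these 6 collagens replicate 2 was the highest library, replicate 1 the second, and replicates 3 to 5 lay below both. The acyl-CoA dehydrogenase *acdh-2* (30.05, 36.96, 11.7, 13.9 and 10.6 RPKM) and *ddo-2* (20.3, 27.8, 12.3, 12.2 and 8.15 RPKM) were placed likewise.

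The lectin *clec-266* (35.8, 42.04, 23.8, 22.1 and 12.5 RPKM), C10C5.3 (16.9, 22.7, 11.3, 10.7 and 7.02 RPKM) and the chitinase *cht-1* (35.0, 38.3, 24.8, 21.4 and 13.0 RPKM) also had replicates 1 and 2 above the others, with replicate 5 lowest. Other genes among the 30 followed another order. VB0393L.2 was low in replicate 4 alone, at 24.6, 28.4, 25.1, 4.69 and 19.5 RPKM in replicates 1 to 5. M199.9 (36.9, 12.2, 19.3, 33.5 and 28.7 RPKM) and F45D11.14 (14.7, 5.89, 7.52, 14.9 and 15.9 RPKM) were lowest in replicates 2 and 3.

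**Figure D5:**
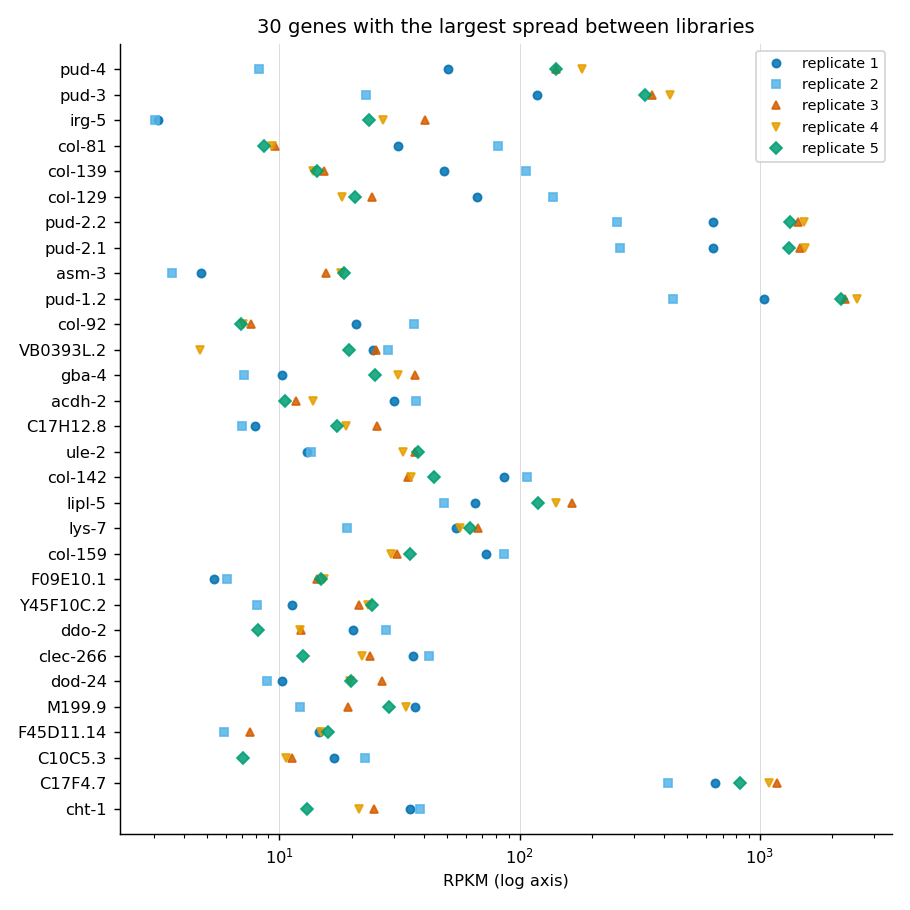
RPKM (x axis, log axis) of the 30 genes with the largest SD of log2(RPKM + 0.5) among genes with a mean of at least 10 RPKM (rows, most spread at the top), with 1 point per library. Replicates 1 and 2 (blue) lie left of the others for the *pud* genes and *irg-5* and right of them for the collagens.

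Over the 100 most spread genes the order of libraries was counted. When the 5 values of a gene were parted at their widest gap, replicates 1 and 2 were set apart in 52 of the 100, below the others in 22 and above in 30, against 16.3% of all 6475 genes. Replicate 2 alone was set apart in 19, against 13.1% of all genes, and replicate 5 alone in 19, against 18.9%. With a mean of at least 1 or at least 50 RPKM in place of 10, the 52 became 32 or 68. Of the lists, the cuticle collagens and the antimicrobial and lectin genes each gave 10 of the 100, while they are 0.541% and 0.834% of the genes counted. Histones and lysosomal proteases each gave 4, and they are 0.293% and 0.263% of the genes counted. Ribosomal proteins, 1.31% of the genes counted, gave 0, and at this share a count of 0 says little.

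The place of replicates 1 and 2 also ran through whole gene lists, in genes with small as well as large spread. Both lay above all of replicates 3 to 5 in 1337 of the 6475 genes (20.6%) and below all of them in 1455 (22.5%). For body wall muscle genes they lay above in 17 of 19 and below in 1, for intestine markers above in 10 of 12 and below in 0, and for cuticle collagens above in 27 of 35 and below in 2. Lysosomal proteases (11 of 17 above, 1 below), neuropeptide genes (12 of 21 above, 0 below) and nuclear respiratory chain genes (26 of 46 above, 2 below) were placed likewise. For germ granule and small RNA genes they lay below in 21 of 24 and above in 0, and for proteasome subunits below in 25 of 33 and above in 1. Translation factors (26 of 40 below, 3 above) and maternal RNA regulators (12 of 24 below, 2 above) had the same direction. These counts are a description made after the split had been seen. The direction of each list named here was the same after rescaling to equal sums and after scaling by the median of ratios. Over all genes the counts became 1167 above and 1838 below at equal sums, and 1128 and 1977 by the median of ratios. Not every list kept its direction. Ribosomal proteins had 23 above and 12 below as deposited, 16 and 17 at equal sums, and 12 and 14 by the median of ratios. The differences were small beside those of the 30 genes above: the muscle genes summed to 4913, 5081, 4191, 3922 and 4200 RPKM and the germ granule genes to 2042, 2028, 2195, 2231 and 2217 RPKM in replicates 1 to 5. Whether tissue composition, age or handling differed between these libraries was not tested.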

How the data were processed

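The authors demultiplexed the reads (bcl2fastq 2.20.0.422), used CLC Genomics Workbench with the WBcel235 assembly and deposited RPKM values for 20191 genes, 1 column per library. The RPKM values deposited by the authors were used as they stand, with no count model and no test, since 1 group is described. Columns were matched to samples by the bracketed number in the sample title. Positions and exon lengths came from an Ensembl annotation (release 115) of the same assembly, in which 19704 genes were matched and 487 were not, and alternative names from RefSeq. Depth was estimated from the spacing of low values, which gave near-whole reads (tolerance 0.1) for 53.5% to 57.4% of them, where random values would give 20%. Reads were therefore not recovered. Shares are the summed RPKM of a list over that of the library. Spread is the SD of log2(RPKM + 0.5) over 5 libraries for genes with a mean of at least 10 RPKM. The ranking by spread and the depth estimate were tried on simulated whole counts. These were made and read with the same exon lengths, so the simulation does not test lengths that differ from those the authors used. Counting error is Poisson on the estimated reads.

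Named are the 30 genes with the highest mean, the 15 least and 30 most spread, the highest members of each list (at most 4), reference genes, markers at 0 in all libraries, *abl-1* and the highest member of families of at least 20 genes; genes outside this rule, such as *end-1*, *rme-2*, *unc-54*, *col-3* and *mec-4*, were named after their values were seen. The libraries and the 51 lists were chosen with earlier results of these data known. After the values were seen, *nspa*, *nspb*, *nspc* and *nspe* genes were taken out of the sperm list, which with them made 0.0985% in place of 0.0204%, and the patterns of the ribosomal, respiratory chain and ion channel lists were corrected. Replicates are separate samples by their labels. Python 3.11.15, numpy 2.4.6, pandas 2.3.3 and matplotlib 3.10.9 were used. Alternatives were other scalings, filters, pseudocounts and measures of spread, and leaving out libraries.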

Additional observations from a re-analysis of the deposited data

Results flagged for a closer look

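Among 323 values examined, 51 list shares and 272 named genes, 14 (4.33%) had 1 library far from the other 4 by Dixon's test at the 95% level, where chance gives about 1 in 20. Replicate 5 was the library set apart in 8 of them. It was lowest for the embryonic zygotic genes (0.00830% of the sum, 0.0108% to 0.0114% in the others) and for their members *vet-6* (8.92 RPKM, others 10.9 to 11.7) and *sdz-28* (5.28 RPKM, others 9.36 to 10.7). It was also lowest for the homeobox genes (0.0448%, others 0.0465% to 0.0471%), *rpl-27* (2549 RPKM, others 2716 to 2762) and *bli-4* (32.6 RPKM, others 34.8 to 35.5). Replicate 5 was highest for the molting and cuticle assembly genes (0.0171%, others 0.0143% to 0.0150%) and for their member *nhr-23* (24.9 RPKM, others 23.6 to 23.9). The highest member of that list is *bli-4*, which went the other way.

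Replicate 2 was lowest for *lys-7* (19.0 RPKM, others 54.2 to 67.4) and for *cit-1.1* (22.0 RPKM, others 22.2), a gene of very small spread. Replicate 4 was highest for *him-3* (87.8 RPKM, others 81.6 to 83.1) and *col-63* (0.562 RPKM, others 0.1002 to 0.207). Replicate 3 was highest for the cuticle protease *dpy-31* (8.40 RPKM, others 7.50 to 7.75) and for *mab-3* (0.244 RPKM, others 0.0915 to 0.133), where few reads decide the value.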

How the results depend on the processing

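Of the 30 most abundant genes, 29 or 30 were kept under both other scalings and without any single library. The germline share was 4.56% with the 10 most abundant genes left out of the sum, against 4.31%, and lay between 4.27% and 4.33% without single libraries. That change raises every list with no member among the 10 by about the same factor. The share of vitellogenins fell from 2.27% to 0.852% with it and the share of translation factors from 2.49% to 1.65%. Of the 51 list shares 0 moved by more than 1 SD with a median, without any single library, or without replicates 1 and 2 both. The last was an alternative chosen after the split was seen. With 5 libraries none of these changes can exceed 1 SD, so this count cannot show that the shares are stable. Without a single library the share of major sperm proteins changed most, from 0.00581% to 0.00340% without replicate 2. The other lists changed by a factor of at most 1.09. Without replicates 1 and 2 both, the share of major sperm proteins was 0.00273%. Genes at 0 in all libraries numbered 2171 to 2280 with 1 library left out. The number of genes with a spread over 0.5 was 51 and depends on the filter: 211 with a mean of at least 1 RPKM, 365 with no filter and 20 with a mean of at least 50 RPKM. It was 38 to 56 without single libraries and 10 with replicates 1 and 2 both left out. The 52 genes that set replicates 1 and 2 apart were 32 with a mean of at least 1 RPKM. The X share was 7.58% without ribosomal proteins, vitellogenins and the 10 most abundant genes, against 7.32%. Of the 30 most spread genes 23 to 28 remained without single libraries, but 6 with a mean of at least 1 RPKM, 6 with no filter, 11 with a mean of at least 50 RPKM and 6 with replicates 1 and 2 both left out. No paired analysis was possible because 1 group is described. Depth limits statements on genes below about 0.1 RPKM.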

Other observations

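Enzymes of the propionate shunt, by which *C. elegans* breaks down propionate when vitamin B12 is short, were abundant and placed alike across the libraries; they were picked after their values were seen. *acdh-1* was at 807, 800, 512, 549 and 520 RPKM in replicates 1 to 5, *hphd-1* at 261, 275, 152, 158 and 166 RPKM, *hach-1* at 210, 222, 120, 127 and 125 RPKM, *ech-6* at 441, 435, 303, 308 and 309 RPKM and *alh-8* at 356, 356, 272, 281 and 290 RPKM. Replicates 1 and 2 lay above the other libraries in all 5 genes, an order also found in 1337 of the 6475 genes (20.6%). Of 4 genes of the B12-dependent route, 1 had this order, *mmaa-1* at 74.5, 75.0, 63.6, 70.2 and 62.9 RPKM. The mutase *mmcm-1* was at 64.6, 63.3, 64.7, 63.99 and 61.6 RPKM, *pcca-1* at 83.6, 84.2, 92.1, 84.9 and 86.1 RPKM, and *pccb-1* at 118.6, 114, 118, 112 and 126 RPKM. Of genes of the methionine cycle, methionine synthase, *metr-1*, was at 81.1, 87.03, 67.7, 64.3 and 65.6 RPKM. *mthf-1* was at 80.1, 79.8, 74.0, 74.8 and 78.4 RPKM, so that replicates 1 and 2 were the highest in both. They were also the highest for *sams-5*, at a mean of 0.716 RPKM. They were not for *sams-1* (79.8, 75.2, 79.4, 76.8 and 87.6 RPKM), *sams-3* (112, 107, 106, 110 and 105 RPKM) and *sams-4* (68.9, 68.7, 68.3, 70.1 and 69.9 RPKM).

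The neuropeptide list (153 genes) made 0.244% ± 0.0207 of the sum. Its highest member, *nlp-77*, was at 580 ± 61.5 RPKM and *nlp-27* at 197 ± 14.3 RPKM, while *flp-28* was the highest of the *flp* genes at 20.9 ± 3.27 RPKM. Histones made 0.328% ± 0.0136, and the highest were the variant *htz-1* (414 ± 12.8 RPKM), the linker histones *hil-4* (365 ± 14.9 RPKM) and *hil-5* (332 ± 18.1 RPKM) and the H3.3 gene *his-72* (329 ± 15.0 RPKM), in libraries selected for poly(A) RNA. The linker histone *his-24* was at 122.3, 147, 105, 79.7 and 56.2 RPKM in replicates 1 to 5. Detoxification genes made 0.347% ± 0.00730, led by *gst-1* (260 ± 9.35 RPKM) and *gst-7* (239 ± 12.1 RPKM), and antioxidant genes 0.220% ± 0.00303, led by the peroxiredoxin *prdx-2* (672 ± 15.1 RPKM) and the superoxide dismutase *sod-1* (240 ± 7.53 RPKM). Transthyretin-related genes made 0.339% ± 0.00902 with *ttr-16* at 518 ± 25.98 RPKM. Of 64 homeobox genes 29 reached 1 RPKM, led by *ceh-38* (58.8 ± 1.87 RPKM).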
